A study of Mus musculus with 8 samples.

Results

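The genes described here make reactive oxygen species or remove them and their products: the NADPH oxidase subunits, the superoxide dismutases, catalase, the glutathione peroxidases, the peroxiredoxins, the thioredoxin system, the enzymes of glutathione synthesis, the glutathione S-transferases, the microsomal transferases, the heme oxygenases and the quinone reductase Nqo1. They were chosen by gene symbol. Of 18193 genes with a probe set (a group of short probes for 1 transcript) that carried exactly 1 gene symbol, 57 were members, with 97 probe sets among the 45101 on the array. Where a gene had several, the brightest on average stood for it. The symbol rule also takes genes that had no probe set of their own in the annotation used and were not analysed here, such as Nox1, Nox3, Duox2, Prdx1, Prdx5, Prdx6, Prdx6b, Gsta1 and Gstp2.

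The ductus arteriosus carries blood past the fetal lung, from the pulmonary artery into the aorta, and shuts once breathing starts. It was compared with the aorta of the same developmental stage, on 4 Affymetrix arrays per tissue. Both tissues came from untreated fetal mice that the labels describe as wild type of strain CD88, on gestation day 19. Per the series' design text, 1 pregnant female gave the tissue for each sample, with up to 10 of its pups pooled. The replicates are therefore pools. The spread between them takes in differences between litters together with those of dissection and array handling, which cannot be told apart. All levels below are log2 signals after robust multi-array averaging (RMA), and all differences are ductus minus aorta on that scale, so that 1 unit is 2-fold.

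Superoxide is made on purpose by the NADPH oxidases and as a by-product of respiration. Superoxide dismutases turn it into hydrogen peroxide, which catalase, the glutathione peroxidases and the peroxiredoxins reduce to water. Glutathione and thioredoxin supply the electrons for the glutathione peroxidases and the peroxiredoxins. The glutathione S-transferases couple glutathione to electrophiles such as the aldehydes formed from oxidised lipids. In the ductus these systems have long been of interest because the rise in oxygen at birth is a signal for the vessel to constrict, and hydrogen peroxide has been discussed as a mediator.

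Arrays of the same tissue correlated at 0.986 to 0.992 over all genes and arrays of different tissues at 0.979 to 0.987. All 10 smooth muscle markers were measured, among them Acta2 with means of 12.14 in the aorta and 12.35 in the ductus, and 5 of the 10 were higher in the ductus. Mesothelial markers, genes of the cells that line body cavities, were present in both tissues and higher in the aorta: 7 of 10 passed the test, and their mean was 7.72 to 9.12 on the aorta arrays and 6.48 to 7.10 on the ductus arrays. The aorta was higher for 3 of 10 endothelial genes, with means of 7.82 to 8.23 there and 7.36 to 7.64 in the ductus. The mean of 9 thymocyte markers ran from 3.57 to 6.60 in the aorta and from 3.98 to 7.37 in the ductus. Of the other marker lists, neutrophil, erythroid, thymocyte, adipocyte and fibroblast genes gave 0 calls. In the ductus, 2 of 10 airway epithelial and 2 of 8 glial genes were higher. Of the airway genes 3 had a negative difference. Of the glial genes 2 did, among them Mbp (-1.26), which did not overlap between the tissues but was not called. Of 10 striated muscle genes 1, Tnnt2, was higher in the aorta, while the differences of the other 9 were positive (median of the list 0.80). The arrays measured whole tissue, in which fewer cells of a type and less RNA per cell cannot be told apart.

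Of the 57 antioxidant and oxidase genes 3 passed the test, all of them glutathione S-transferases with more signal in the aorta. A gene that did not pass is not thereby shown to be at the same level in the 2 vessels. Gsta4 was 2.66-fold, Gstk1 1.77-fold and Gstm2 1.47-fold higher in the aorta. Limma called 3 of 57 members at an adjusted p under 0.05, where 3.86% of all 18193 genes were called. In the aorta direction these were 3 of 57, against 2.06% of all genes. In the ductus direction there were 0 of 57, against 1.80% of all genes, and at an unadjusted p under 0.05 2 members lay on the ductus side and 7 on the aorta side, against 6.94% and 9.19% of all genes. The count of called members is near the background share and is no result about the group as a whole. The median difference of the members was -0.02, that of all genes -0.03, and 25 members had a positive and 32 a negative difference.

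**Figure D1:**
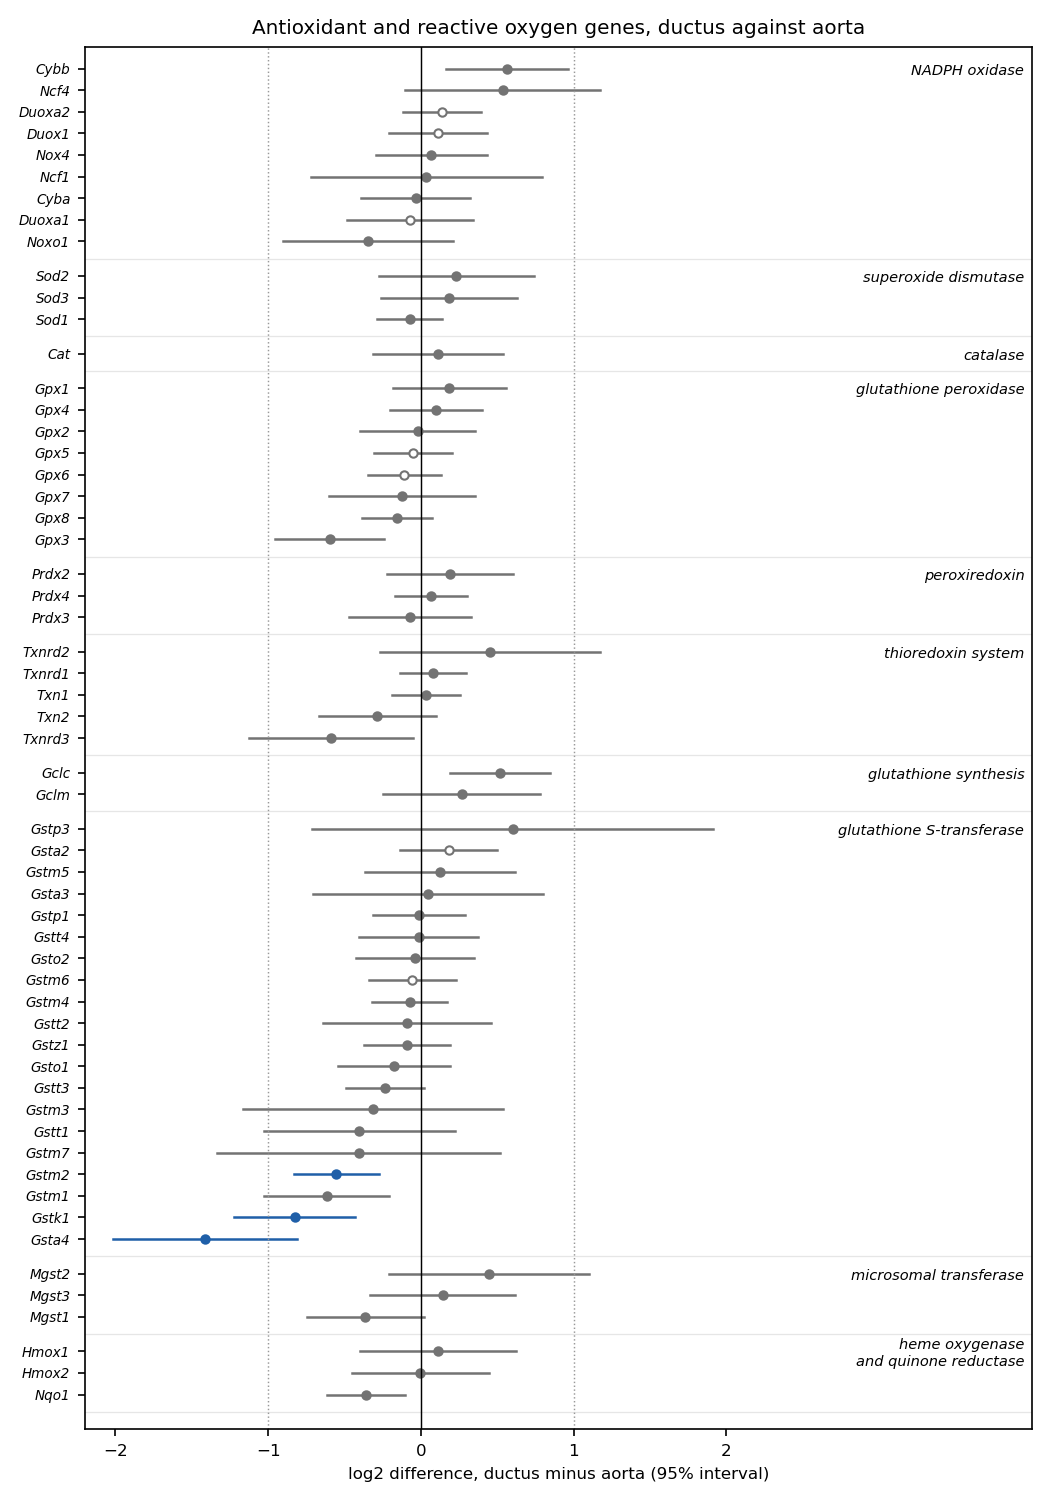
Log2 difference between ductus and aorta (x axis) of the 57 genes (y axis), grouped by role, with the 95% interval of the limma fit on 4 arrays per tissue; blue marks the 3 called genes, open circles the 7 genes with a tissue mean below the highest first quartile of an array, and dotted lines 2-fold. The called genes are glutathione S-transferases on the aorta side, from -1.41 for Gsta4 to -0.55 for Gstm2, and the other differences lie between -0.62 and 0.60.

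The intervals show how much of a difference these arrays could have missed. For 46 of 57 members the 95% interval of the difference lay within 2-fold in either direction, against 89.7% of all genes. The 11 others were Ncf4, Txnrd2, Txnrd3, Mgst2 and the transferases Gsta4, Gstk1, Gstm1, Gstm3, Gstm7, Gstp3 and Gstt1. For Duoxa2, Gpx5, Gpx6 and Gstm6 both tissue means were below 2.86, the highest first quartile of an array, and for Duox1, Duoxa1 and Gsta2 one of them was. The table used holds no detection call, so these 7 genes are not shown to be above background and their differences can be compressed.

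The call of the 3 transferases depended on single arrays. The count of members higher in the aorta was 0 without aorta replicate 2, aorta replicate 4, ductus replicate 2 or ductus replicate 4. It was 1 (Gsta4) without ductus replicate 1 or ductus replicate 3. It was 3 without aorta replicate 1, and 3 without aorta replicate 3, where Gpx3 passed and Gstk1 did not. The adjusted p of Gsta4 stayed between 0.00798 and 0.0624 over these 8 fits, and its difference between -1.63 and -1.18.

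Of the 9 NADPH oxidase genes, which hold the catalytic subunits and their partners, none was called and Cybb alone had an unadjusted p under 0.05. Cybb, the catalytic subunit of the phagocyte oxidase, was at 5.87, 5.77, 5.64 and 6.29 on aorta replicates 1 to 4 and at 6.66, 6.12, 6.69 and 6.35 on ductus replicates 1 to 4. Ductus replicate 2 lay below aorta replicate 4, so the tissues overlapped. The difference was 0.56 ± 0.178 (SE; adjusted p = 0.138), and the other 2 probe sets of the gene also had positive differences, 0.35 and 0.32.

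Ncf4, a cytosolic subunit of the same enzyme, differed by 0.54 with a 95% interval of -0.10 to 1.17 (adjusted p = 0.402). Its lowest value was 5.75 on aorta replicate 3 and its highest 7.59 on ductus replicate 1. Ncf1, another cytosolic subunit, differed by 0.03 (-0.72 to 0.79) and was also lowest on aorta replicate 3, at 4.54. Macrophage markers, which mark cells that carry this oxidase, were not called (0 of 10), with means of 7.90 to 8.32 in the aorta and 7.43 to 8.20 in the ductus. They too were lowest within the aorta on replicate 3 and lowest within the ductus on replicate 2. Cybb and Ncf4 also had their lowest ductus values on replicate 2, as did 30.6% of all genes. Ncf1 was lowest in the ductus on replicate 4, at 5.07. Of the 10 macrophage markers 7 had a negative difference (median of the list -0.17), while the differences of Cybb and Ncf4 were positive. Neutrophil markers were not called either (0 of 8), with means of 8.23 to 8.74 in the aorta and 8.42 to 8.92 in the ductus. Within the ductus they were lowest on replicate 2 and highest on replicate 3, as was Cybb. Within the aorta they were lowest on replicate 1, unlike Cybb. The part of macrophages or neutrophils in these values was not tested.

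Nox4, the oxidase of smooth muscle and fibroblasts that releases hydrogen peroxide, was at 5.87, 5.92, 5.41 and 5.82 in the aorta and at 5.50, 6.03, 6.01 and 5.75 in the ductus. The 2 sets of values overlapped almost fully, with a difference of 0.07 (95% interval -0.30 to 0.43; adjusted p = 0.890). Its membrane partner Cyba had a mean of 7.41 ± 0.221 in the aorta and 7.38 ± 0.248 in the ductus (SD, n = 4 each), a difference of -0.04 (-0.39 to 0.32). Noxo1, an organiser of the epithelial oxidase, differed by -0.35 (-0.91 to 0.21). Duox1 and the maturation factors Duoxa1 and Duoxa2 stayed at or near the first quartile.

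None of the 3 superoxide dismutases passed, and none had an unadjusted p under 0.05. Sod1, the cytosolic copper and zinc enzyme, had the smallest spread of all members, with a within-tissue SD of 0.0701, and was at 12.92 ± 0.0854 in the aorta and 12.84 ± 0.0505 in the ductus (SD, n = 4 each). Its interval, -0.29 to 0.14, is the narrowest of the 57. Sod2, the mitochondrial manganese enzyme, was at 8.96, 8.60, 9.74 and 9.46 in the aorta and at 9.40, 9.51, 9.25 and 9.52 in the ductus, with a difference of 0.23 (-0.28 to 0.74; adjusted p = 0.691). Of its 4 probe sets 2 went in this direction. Sod3, the secreted form bound to the vessel matrix, differed by 0.18 (-0.26 to 0.63). Cat, the peroxisomal catalase that splits hydrogen peroxide, was at 10.57 ± 0.389 in the aorta and 10.68 ± 0.1725 in the ductus (SD, n = 4 each), a difference of 0.11 (-0.32 to 0.54; adjusted p = 0.837).

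Among the 8 glutathione peroxidases 0 were called by limma and 1, Gpx3, had an unadjusted p under 0.05. Gpx3, the secreted plasma form, was at 11.18, 11.00, 10.49 and 10.75 in the aorta and at 10.22, 10.07, 10.32 and 10.42 in the ductus. Every aorta value lay above every ductus value. The difference was -0.60 ± 0.158 (SE; adjusted p = 0.0775), and it passed without aorta replicate 3 (-0.72, adjusted p = 0.0313) and with a trended robust prior (adjusted p = 0.0252). The mesothelial marker mean, like Gpx3, was highest on aorta replicate 1 and lowest among the aorta arrays on replicate 3. Of all genes, 8.02% had that pattern. In the ductus the orders differed: Gpx3 was highest on replicate 4, where the marker mean was lowest (6.48). The part of mesothelial cells in the difference was not tested.

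The other glutathione peroxidases gave smaller differences, with intervals that lay within 2-fold in either direction. Gpx1, the main cytosolic form, differed by 0.18 (-0.19 to 0.56) and Gpx4, which reduces lipid peroxides within membranes, by 0.10 (-0.21 to 0.40). The endoplasmic reticulum forms Gpx7 and Gpx8 differed by -0.12 (-0.60 to 0.35) and -0.16 (-0.38 to 0.07). The 8 differences ranged from -0.60 to 0.18, with 6 of them negative, as were 10192 of the 18193 over all genes. Among the 6 are Gpx5 and Gpx6, whose levels were below the first quartile in both tissues.

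The peroxiredoxins measured, Prdx2, Prdx3 and Prdx4, were not called. Prdx2, an abundant cytosolic enzyme of red cells and other tissues, was at 11.89, 11.59, 11.34 and 12.08 in the aorta and at 12.24, 11.90, 11.69 and 11.82 in the ductus (difference 0.19, -0.22 to 0.60; adjusted p = 0.684). Its highest values, on aorta replicate 4 and ductus replicate 1, fell on the arrays with the highest mean of the 6 measured erythroid markers in each tissue, 8.24 and 8.41. The mitochondrial Prdx3 differed by -0.07 and Prdx4 of the secretory pathway by 0.06, the latter with 4 of 4 probe sets in the same direction.

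The thioredoxin genes did not pass either. Txn1, the cytosolic thioredoxin, differed by 0.03 (-0.19 to 0.25; adjusted p = 0.910) and its reductase Txnrd1 by 0.08 (-0.14 to 0.29; adjusted p = 0.768). The mitochondrial reductase Txnrd2 was at 7.19, 6.48, 6.59 and 7.58 in the aorta and at 8.28, 7.16, 7.18 and 7.04 in the ductus. A single ductus array, replicate 1, lay above all others. Its difference of 0.45 had a wide interval of -0.27 to 1.18, and 2 of its 4 probe sets went the other way. Txnrd3, a reductase known from testis, differed by -0.59 (-1.13 to -0.05; adjusted p = 0.261), with all 3 probe sets in the same direction.

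Of the 2 subunits of glutamate-cysteine ligase, the first and rate-limiting enzyme of glutathione synthesis, neither was called. The catalytic subunit Gclc was at 6.27, 6.57, 6.64 and 6.12 in the aorta and at 6.74, 6.99, 7.11 and 6.81 in the ductus. It was the 1 member of which every ductus value lay above every aorta value, where 5.23% of all genes showed that pattern. The difference was 0.52 ± 0.147 (SE; adjusted p = 0.0964), and the other probe set gave 0.74. Gclm, the modifier subunit, differed by 0.27 (-0.25 to 0.78; adjusted p = 0.643).

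The glutathione S-transferases formed the largest group, with 20 genes, and held all 3 calls, with 0 on the ductus side. Of their 20 differences 16 were negative, as were 10192 of the 18193 over all genes, of which 2.06% were called towards the aorta. Gsta4, an alpha-class enzyme known for its activity towards 4-hydroxynonenal, the aldehyde formed from oxidised lipids, was at 10.16, 9.38, 8.82 and 9.50 on aorta replicates 1 to 4. On ductus replicates 1 to 4 it was at 8.52, 7.76, 8.02 and 7.91. The lowest aorta value lay above the highest ductus value. The means were 9.46 ± 0.549 and 8.05 ± 0.327 (SD, n = 4 each), the difference -1.41 ± 0.269 (SE; 95% interval -2.02 to -0.81; adjusted p = 0.0192). Gsta4 was the 1 member called with a difference of at least 2-fold, where 2.13% of all genes were called that way in either direction and 1.11% of all genes towards the aorta.

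Gsta4 had the same order of arrays as the mesothelial marker mean within the aorta, but not fully within the ductus. Within the aorta its order, replicate 1 highest, then 4, 2 and 3, was that of the mesothelial marker mean (9.12, 8.66, 8.31 and 7.72). Over all genes, 8.02% were highest on aorta replicate 1 and lowest among the aorta arrays on replicate 3. Within the ductus replicates 1 and 3 were the highest in both. The marker mean was 7.10 and 7.05 there and 6.58 and 6.48 on replicates 2 and 4. Gsta4 was lowest on ductus replicate 2, the marker mean on ductus replicate 4. With the mesothelial mean in the model (a fit added once the data had been seen) the Gsta4 difference was 0.05 (adjusted p = 0.981). In the same fit that of Gstk1 was -1.38, of Gstm2 -0.48, of Gpx3 -0.07 and of Gclc 0.11, and none of them passed (adjusted p = 0.248 for Gstk1 and 0.689 for Gstm2). That covariate differs between the tissues without overlap, so the fit cannot tell it apart from the tissue, and it left 48 genes called in all. Which cells hold the Gsta4 signal was not tested.

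Gstk1, a kappa-class enzyme of mitochondria and peroxisomes, was at 6.69, 7.53, 7.28 and 7.24 in the aorta and at 6.34, 6.17, 6.40 and 6.52 in the ductus. The tissues did not overlap, but aorta replicate 1 lay only a little above ductus replicate 4. The difference was -0.83 ± 0.175 (SE; 95% interval -1.22 to -0.43; adjusted p = 0.0314). Unlike Gsta4, it had its lowest aorta value on replicate 1, the array with the highest mesothelial mean. It passed in 1 of the 8 fits that left out an array, without aorta replicate 1 (adjusted p = 0.00487), and its adjusted p was 0.0591 to 0.0857 in the others. With the thymocyte mean in the model (a fit added once the data had been seen) its difference was about as large, -0.79, and did not pass (adjusted p = 0.0638).

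Gstm2, a mu-class enzyme, was at 9.32, 9.71, 9.36 and 9.69 in the aorta and at 9.01, 8.86, 9.06 and 8.94 in the ductus. All 4 ductus values were below all 4 aorta values and lay close together, with an SD of 0.0892. The difference was -0.55 ± 0.124 (SE; 95% interval -0.83 to -0.28; adjusted p = 0.0396). It passed in 2 of the 8 fits that left out an array, without aorta replicate 1 or aorta replicate 3, and its adjusted p was up to 0.112 in the others. With the probe sets of largest interquartile range it missed the threshold (adjusted p = 0.0539). Gsta4, Gstk1 and Gstm2 each have 1 probe set. In a limma fit over all probe sets with 1 symbol, those of Gsta4 and Gstk1 passed and that of Gstm2 did not (adjusted p = 0.0515).

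**Figure D2:**
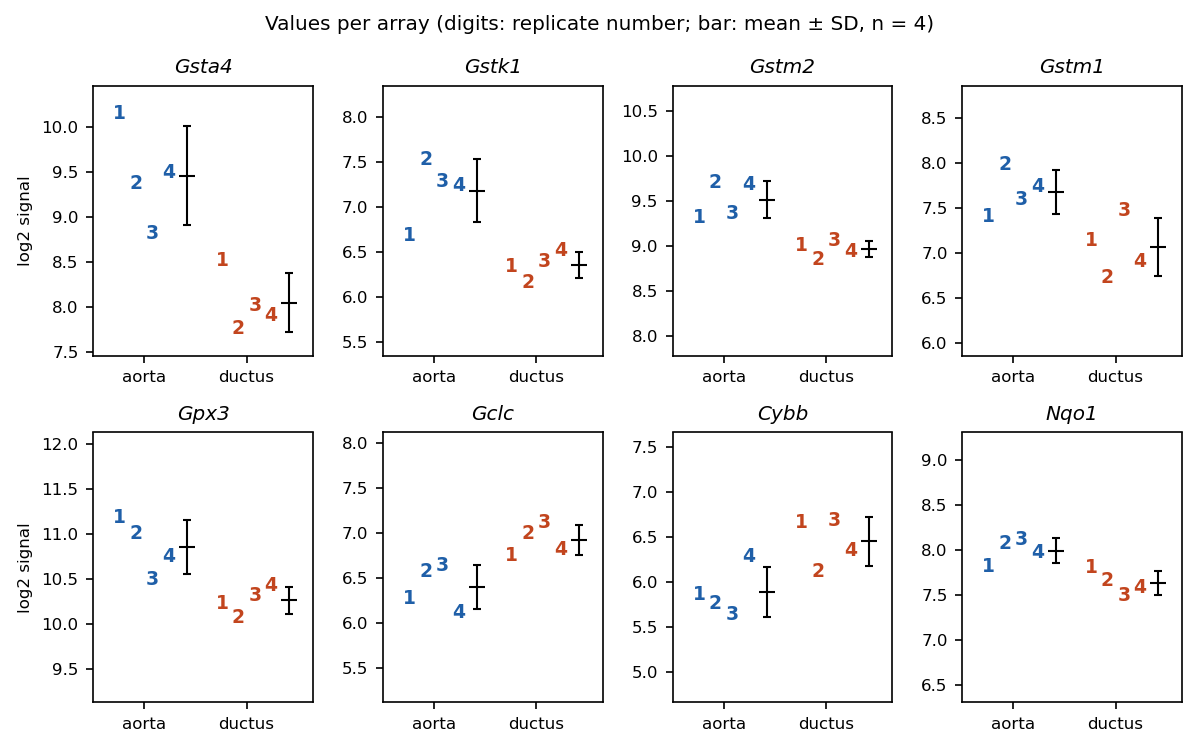
Log2 signal (y axis, the same span in each panel) of 8 genes on each array, with digits for the replicate number, blue for the aorta, orange for the ductus and bars for the mean ± SD of 4 arrays. Gsta4, Gstk1, Gstm2, Gpx3 and Nqo1 have every aorta value above every ductus value, Gclc has the reverse, and the tissues overlap for Gstm1 and Cybb.

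**Figure D3:**
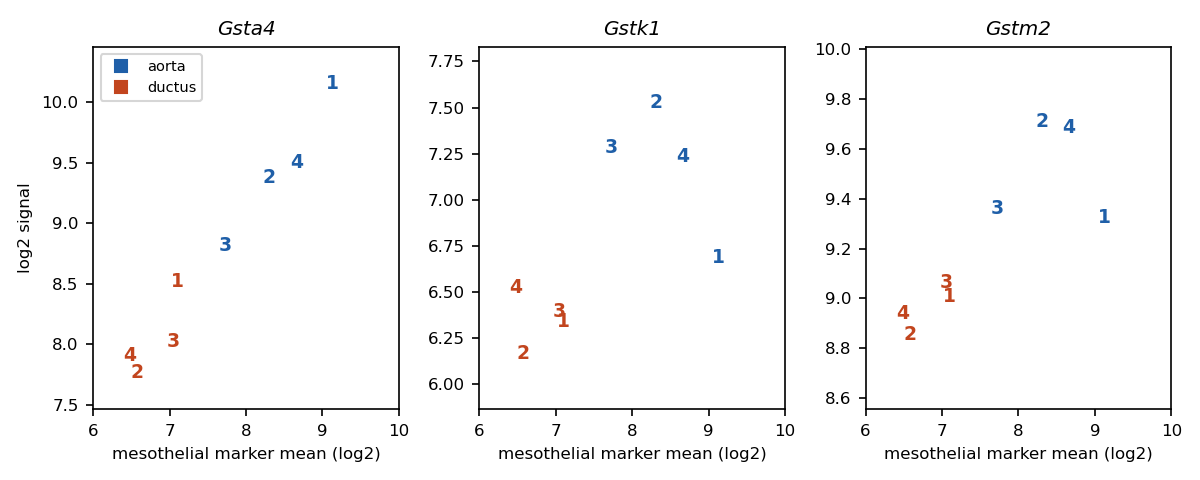
Log2 signal of Gsta4, Gstk1 and Gstm2 (y axis) against the mean of 10 mesothelial markers (x axis, log2) on each array, with digits for the replicate number, blue for the aorta and orange for the ductus. Gsta4 is highest on aorta replicate 1, at 10.16, where the marker mean is highest (9.12), while Gstk1 has its lowest aorta value, 6.69, on that array.

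The 7 Gstm genes lie side by side in the reference gene table, with 0 other protein-coding genes between them, in the order Gstm5, Gstm7, Gstm6, Gstm3, Gstm2, Gstm1 and Gstm4. Of the 7, 1 was called and 6 had a negative difference, among them Gstm6, whose level was below the first quartile in both tissues; over all genes 2.06% were called towards the aorta and 10192 of 18193 were negative. Gstm1, next to Gstm2, was at 7.41, 7.98, 7.60 and 7.75 in the aorta and at 7.14, 6.74, 7.48 and 6.91 in the ductus (difference -0.62 ± 0.182, SE; adjusted p = 0.110). Ductus replicate 3 lay above aorta replicate 1, so its tissues overlapped. Of its 4 probe sets 3 went the same way, and another of them also gave -0.62. Gstm5, at the other end of the run, differed by 0.12 (-0.37 to 0.61) and Gstm4 by -0.07 (-0.32 to 0.17). Sequences of the mu class are close to each other, so probes of 1 gene may take up signal of another, and the values of single Gstm genes are uncertain to that extent.

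The other transferase classes gave no call. The 4 Gstt genes, also adjacent, had differences of -0.40 to -0.02. The other alpha-class genes measured differed from 0 by less than their intervals: Gsta3 by 0.05 (-0.71 to 0.80) and Gsta2, near the first quartile, by 0.18. Gstp1, the pi-class enzyme, differed by -0.02 (-0.32 to 0.29; adjusted p = 0.972). Gstp3 was the most variable member, with a within-tissue SD of 1.03: it was at 4.34, 5.40, 4.62 and 5.31 in the aorta and at 6.13, 3.71, 6.87 and 5.37 in the ductus. The ductus arrays held both its highest and its lowest value, and its difference of 0.60, the largest in favour of the ductus, had an interval of -0.71 to 1.91. Among the microsomal transferases, Mgst1 differed by -0.36 (-0.75 to 0.02), Mgst2 by 0.45 (-0.21 to 1.10) and Mgst3 by 0.14 (-0.33 to 0.62).

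Heme oxygenase 1, the stress-induced enzyme that breaks down heme, gave no call: Hmox1 was at 6.54, 6.30, 6.12 and 6.92 in the aorta and at 7.10, 6.19, 6.68 and 6.36 in the ductus (difference 0.11, -0.40 to 0.62; adjusted p = 0.869). The constitutive Hmox2 differed by -0.0046 (-0.45 to 0.44). Nqo1, a quinone reductase and a standard readout of the transcription factor NRF2, was at 7.81, 8.07, 8.12 and 7.97 in the aorta and at 7.80, 7.66, 7.49 and 7.57 in the ductus. The tissues did not overlap, but the lowest aorta and the highest ductus value, both on replicate 1, nearly met. The difference was -0.36 ± 0.114 (SE; adjusted p = 0.140). Counted over all members, 1 was without overlap towards the ductus and 5 towards the aorta (Gsta4, Gstk1, Gstm2, Gpx3 and Nqo1), where 5.23% and 6.06% of all genes were. Each of these 6 had the smallest p that an exact permutation test of 4 against 4 arrays can give, 0.0286, two-sided and unadjusted. The lack of overlap fixes this p in advance, so it adds no support.

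Many of these genes are known targets of NRF2, which binds the antioxidant response element, TGACNNNGC. The element was searched on both strands in windows from 250 bases before to 50 after each annotated start, taken from RefSeq on build GRCm38.p6. Windows existed for 51 of the 57 members (67 windows in all) and were missing for Gclc, Gsta4, Gstt2, Hmox1, Ncf4 and Sod3. The element was found in 7 of the 67 member windows (10.4%) and in 12.4% of all 32851 windows. The AP-1 element TGANTCA, which can overlap it, was found in 5 member windows (7.46%) and in 7.81% of all windows. In no member window did the 2 overlap. The 7 matches are shown with 10 bases on either side, read on the strand that carries the element, which is in capitals:
Sod1, chr16:90220696-90220724, minus strand: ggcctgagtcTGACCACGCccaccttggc
Txnrd1, chr10:82859104-82859132, minus strand: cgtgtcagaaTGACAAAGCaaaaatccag
Gclm, chr3:122245413-122245441, minus strand: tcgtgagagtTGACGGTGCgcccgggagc
Gsta3, chr1:21240454-21240482, plus strand: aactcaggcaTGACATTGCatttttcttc
Gstm5, chr3:107895802-107895830, plus strand: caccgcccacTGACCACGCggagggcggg
Gstm7, chr3:107931725-107931753, minus strand: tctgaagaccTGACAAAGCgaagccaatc
Mgst1, chr6:138140461-138140489, minus strand: ccccgcctccTGACCGTGCcaagccccgc
None of these 7 genes was called. Their differences ran from -0.41 for Gstm7 to 0.27 for Gclm.

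The windows of the called genes Gstk1 and Gstm2 held neither element. The 250 bases before their starts are shown because these are the called members with a window:
Gstk1, chr6:42245685-42245934, plus strand: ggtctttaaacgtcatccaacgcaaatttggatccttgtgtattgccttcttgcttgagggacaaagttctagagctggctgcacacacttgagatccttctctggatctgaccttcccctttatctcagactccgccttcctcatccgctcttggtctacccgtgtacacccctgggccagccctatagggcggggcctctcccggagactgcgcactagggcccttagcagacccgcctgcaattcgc
Gstm2, chr3:107986421-107986670, minus strand: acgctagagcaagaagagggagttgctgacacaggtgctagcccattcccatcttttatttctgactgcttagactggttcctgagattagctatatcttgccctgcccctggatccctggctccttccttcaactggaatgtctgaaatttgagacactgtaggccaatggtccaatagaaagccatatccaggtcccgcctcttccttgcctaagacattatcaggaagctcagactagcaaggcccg
The Gstk1 stretch was 55.6% G and C with 10 CG pairs, the Gstm2 stretch 49.6% with 3. A match or its absence describes these letters and says nothing of binding.

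Of 69 further redox genes listed (NRF2 and its partners, glutathione and NADPH supply, metallothioneins, methionine sulfoxide reductases and others), 64 were measured. Of these, 0 were called on the ductus side and 2 on the aorta side, against 1.80% and 2.06% of all genes. At an unadjusted p under 0.05 there were 2 and 7 of the 64, against 6.94% and 9.19% of all genes. G6pdx, Ucp2, Ftl1, Akr1b3 and Por were not analysed here. Ephx1, the microsomal epoxide hydrolase, was at 7.98, 8.36, 7.96 and 8.13 in the aorta and at 7.31, 7.06, 7.54 and 7.22 in the ductus, without overlap. Its difference was -0.82 ± 0.138 (SE; 1.77-fold; adjusted p = 0.0103), and it passed in all 8 fits that left out an array.

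Oxr1, an oxidation resistance gene, differed by -0.47 ± 0.109 (SE; adjusted p = 0.0459) and passed in 0 of those 8 fits (adjusted p up to 0.118). With the mean over its 3 probe sets, 0 of which were called alone, the difference was -0.19 (adjusted p = 0.314). Nfe2l2, which encodes NRF2, was at 7.72, 7.57, 7.79 and 8.09 in the aorta and at 7.55, 7.27, 7.33 and 7.36 in the ductus. The tissues did not overlap, and the difference of -0.41 ± 0.132 (SE) did not pass (adjusted p = 0.142). Nfe2l2 was named after its values were seen. The median difference of the 64 genes was -0.04.

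Within each tissue, certain arrays were the highest or lowest for many members. Ductus replicate 3 was the highest and replicate 2 the lowest ductus array for 16 of 57 members (28.1%), among them 8 of the 20 transferases (Gsta3, Gstm1, Gstm2, Gstm3, Gstm7, Gstp3, Gstt2 and Gstt4), and for 13.6% of all genes. The smooth muscle mean (10.51 and 10.00), the endothelial mean (7.64 and 7.36) and the airway epithelial mean (5.60 and 4.52) were also highest and lowest on these ductus arrays. So were the striated muscle mean (7.12 and 4.71), the neutrophil mean (8.92 and 8.42) and the glial mean (4.79 and 4.53). Aorta replicate 4 and ductus replicate 1 were the highest of their tissues for 11 members (19.3%): Cat, Gclm, Gsto2, Hmox1, Mgst1, Mgst2, Ncf4, Prdx2, Prdx3, Sod1 and Txnrd2, against 11.2% of all genes. On these 2 arrays the thymocyte mean (6.60 and 7.37) and the erythroid mean (8.24 and 8.41) were the highest of their tissues. The part of these cells in the members' values was not tested. The median within-tissue SD of the members was 0.266, that of all genes 0.216.

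**Figure D4:**
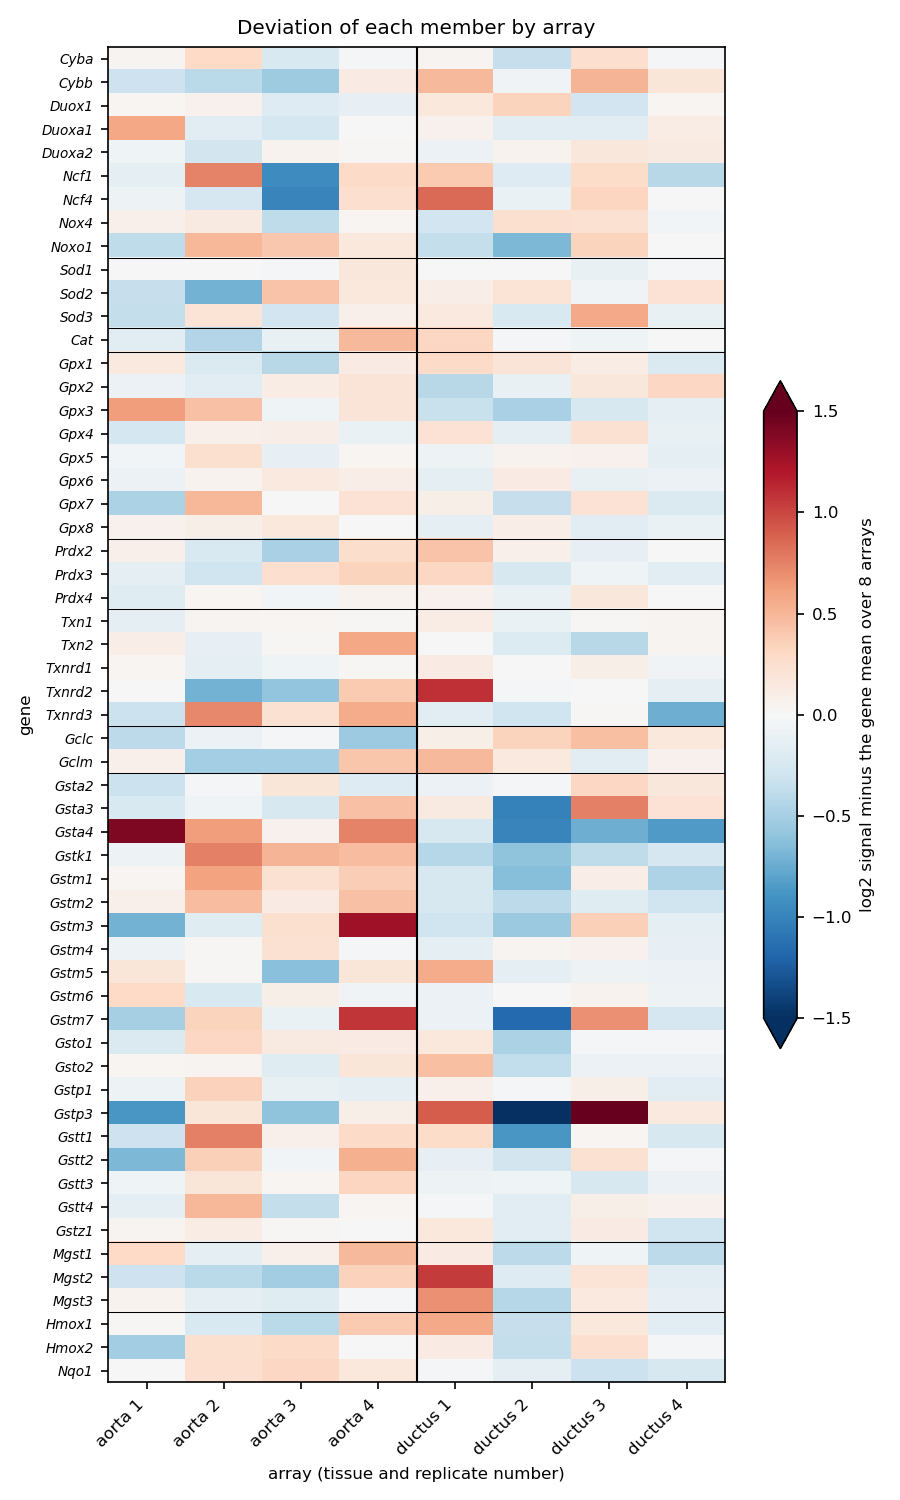
Log2 signal of each of the 57 genes (rows, with lines between roles) minus its mean over the 8 arrays, by array (columns), from blue (lower) to red (higher). Gsta4 and Gstk1 separate the tissues, while Gstp3, Gsta3 and Gstm7 differ most between ductus replicates 2 and 3.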

How the data were processed

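Total RNA of 4 ductus and 4 aorta pools was labelled and hybridised to Affymetrix mouse arrays, per the labels' protocols. The deposited values are log2 signals per probe set, made with Partek 6.6 and RMA per the submitters' processing notes, which list no settings. Values ran from 1.74 to 13.87. The number of arrays limits the precision, and array medians lay between 4.36 and 4.42.

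Control probe sets (64) were left out, 9160 probe sets were not listed in the annotation used, 932 carried several symbols and 34945 carried 1. Of the last, 34741 were named through the reference gene table and 204 kept the platform's symbol. No low-value filter was applied. Limma 3.58.1 in R 4.3.3 (lmFit, eBayes, two-sided, no covariate) was fitted on all genes, with Benjamini-Hochberg adjustment over all of them and a threshold of 0.05. It was tested on simulated data. Replicates are labelled as biological. The 32 genes named are all called members, the 12 largest differences and a fixed set of anchors, plus the called genes of the further redox list. Values of other genes, such as Noxo1, Gpx7, Prdx3 and Gstm5, are also given. The gene-level counts of alternatives and outliers below do not cover those genes. The members, lists and marker genes were chosen with earlier results of these data known. Alternatives covered scaling, low-value filters, the choice of probe set, array weights, a trended prior, an exact permutation test, a replicate block, the threshold, platform symbols and leaving out each array. Covariates for 2 marker lists were added after seeing the data.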

Additional observations from a re-analysis of the deposited data

Results flagged for a closer look

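In groups of 4 arrays, 6 values of the 32 genes named stood apart from the other 3 by more than Dixon's 95% critical value, out of 64 groups tested, where chance gives about 1 in 20. Sod1 was at 13.04 on aorta replicate 4 against 12.86 to 12.88 on the other aorta arrays, and at 12.77 on ductus replicate 3 against 12.86 to 12.87 on the other ductus arrays. Sod1 had the smallest within-tissue spread of all members. Catalase (Cat) was at 10.94 on ductus replicate 1 against 10.56 to 10.61, and Txnrd2 at 8.28 on the same array against 7.04 to 7.18. That array also had the highest thymocyte mean of all, 7.37. Txn1 was at 10.92 on aorta replicate 1 against 11.08 to 11.11, and Gstp1 at 10.88 on aorta replicate 2 against 10.40 to 10.46.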

How the results depend on the processing

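Of the values of the 32 genes named, 623 kept their side of the threshold under the alternatives. Another 38 lost the threshold, 5 gained it and 1 lost it with its direction turned. Of the gains, 2 were fits in which Gpx3 passed on the adjusted p. The others (Gpx3, Gclc and Nqo1) came from the exact permutation test, whose unadjusted p of 0.0286 was set against 0.05. The 623 include differences of uncalled genes that changed sign. Cyba, for example, kept its direction in 16 of 20 alternatives, Ncf1 in 14 of 19 and Hmox2 in 14 of 20. The turned value is Gsta4, at 0.0515 with the mesothelial mean as a covariate, a fit chosen after seeing the data. Against 3 as reported, members higher in the aorta numbered 4 with the trended prior, 4 at an adjusted p under 0.1, 2 when the most variable probe set (by interquartile range) was taken, 2 with the thymocyte covariate, 1 when 2-fold was also required and 0 with the mesothelial covariate. Leaving out single arrays gave 0 to 3. At an adjusted p under 0.1, 1 member (Gclc) was higher in the ductus. Called genes in all, 702 as reported, numbered 1157 at an adjusted p under 0.1, 388 when 2-fold was required, 48 with the mesothelial covariate and 443 to 705 without single arrays. Of the further redox genes, 1 was higher in the aorta with centred arrays, with the mean over probe sets, with the most variable probe set and without any single array, and 0 when 2-fold was required or with the mesothelial covariate.

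With the replicate number as a block, 1 member (Gsta4, adjusted p = 0.0173), 0 further redox genes and 403 genes in all were called. Same-numbered arrays deviated from their tissue means with correlations of -0.07, -0.15, -0.19 and -0.23, and no array correlated best with its own number, so the numbers were not taken as pairs. With 4 arrays per tissue, probe sets near the first quartile give no usable difference.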
